A study of Homo sapiens with 6 samples.

Results

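RNA of KHM-5M cells, an established line from an anaplastic thyroid cancer, was compared between 2 libraries of cells treated with sodium selenite (SS) and 2 control libraries of cells given phosphate-buffered saline (PBS). These 4 libraries were chosen by the treatment named in their labels, out of 6 in the series. The other 2 libraries, from cells given SS together with the thiol antioxidant N-acetylcysteine (SS+NAC), shared the fit and are quoted only beside some results. All groups share the one cell line, grown in culture, and the labels give neither an SS dose with a unit nor an exposure time. The study's methods name 2 biological replicates for each experiment. The comparison asks which transcripts respond to SS. Because the fold change fell with transcript length, each gene was set beside other genes of similar length, and the genes that still stood out are described here.

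Selenite is an inorganic form of selenium. Cells reduce it with glutathione and thioredoxin to selenide, which feeds the synthesis of selenoproteins, and in excess this redox cycling consumes thiols and yields reactive oxygen species. Oxidant and other stresses are known to induce immediate early genes, a class of transcription factors and signalling inhibitors transcribed within minutes of a stimulus, and the targets of the stress factors NRF2, ATF4 and p53.

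The expected counts summed to between 17645545 and 23810056 in the 6 libraries, with 16114 to 16503 genes detected. Replicate counts differed by more than sampling noise, with a chi-square per degree of freedom of 3.1 in control and 7.35 in SS, and the biological coefficient of variation was 6.32% in the fit with the length offset. The thyroid factor PAX8 stood at 104 to 134 TPM (transcripts scaled to a common total per library), and KRT8, KRT18 and VIM, markers of epithelial and mesenchymal cells, at 731 to 6620 TPM, whereas the epithelial genes CDH1, KRT19 and EPCAM were at 0.14 to 6.07 TPM. Thyroglobulin (TG), the iodide transporter SLC5A5 and NKX2-1, defining genes of differentiated thyrocytes, were at 0.07 to 0.69 TPM in every library. Among endothelial markers, 5 genes were at 0.52 TPM or less. Of the leukocyte markers, CD3E was at 0.06 TPM or less and PTPRC at 0.53 to 0.77 TPM, and CD68 stood at 70.5 to 109 TPM. Of the fibroblast markers, COL1A2, COL3A1 and DCN were at 0.19 TPM or less, whereas COL1A1 stood at 167 to 273, LUM at 4.17 to 8.80 and PDGFRB at 3.42 to 5.74 TPM.

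Without any correction, 5609 of 14005 tested genes passed edgeR's quasi-likelihood test at an adjusted p of at most 0.05 (40.0%), 2605 of them higher and 3004 lower in SS. These calls followed transcript length. Among the 1751 shortest genes, with effective lengths of 183 to 1407 bases, the median log2 fold change was 0.46, and 1215 were called higher and 19 lower. Among the 1751 longest, from 6088 bases up, the median was -0.46, with 29 higher and 1109 lower.

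Both SS libraries differed from the other 4 libraries in this slope. For the shortest 1751 genes, the median deviation of log2 CPM (counts scaled by library size and TMM factor) from each gene's mean over the 6 libraries was -0.15 and -0.13 in control, against 0.23 and 0.37 in SS. The longest 1751 had 0.17 and 0.15 in control, against -0.27 and -0.33 in SS. The SS+NAC libraries lay with control, at -0.12 and -0.18 for the shortest genes and at 0.13 and 0.16 for the longest. Whether the slope arose in the cells or in the making of the libraries was not tested.

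**Figure D1:**
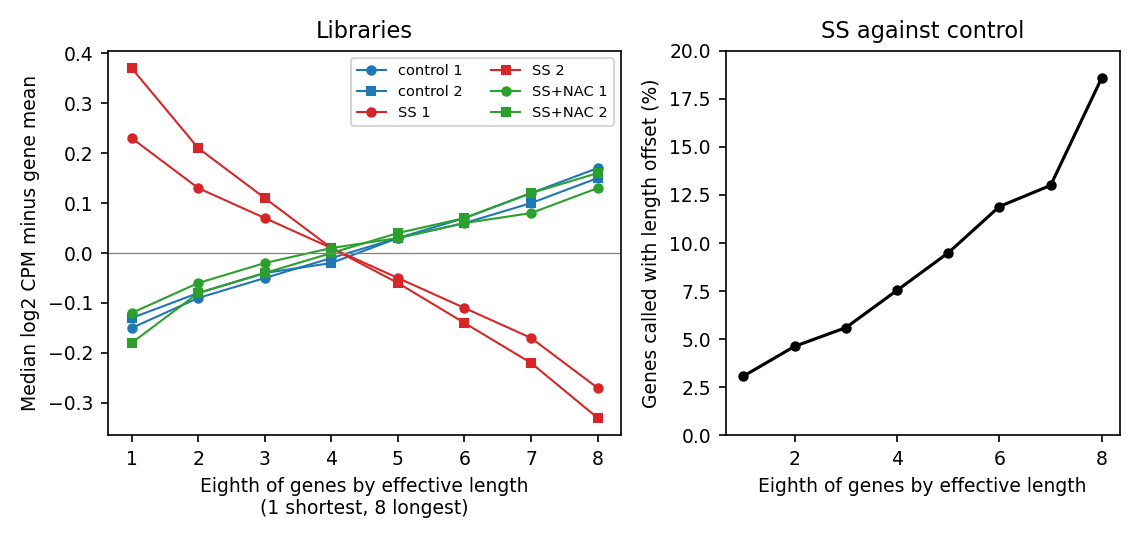
Left, median deviation of log2 CPM from the gene mean (vertical axis) in each of the 6 libraries over 8 equal groups of genes ordered by effective length (horizontal axis); blue, control; red, SS; green, SS+NAC; circles and squares are replicates 1 and 2. Both SS lines run from positive values for the shortest genes to negative values for the longest, and the other 4 run the opposite way, which centring on the mean of the 6 libraries imposes. Right, the share of genes called between SS and control with the length offset (percent), which ranges from 3.08% in the shortest to 18.6% in the longest eighth.

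An offset for the length trend of each library moved the median log2 fold change of every length eighth to between 0.00 and 0.02. With the offset, 1292 genes passed (9.23%), of which 587 were higher (4.19%) and 705 lower (5.03%) with SS, and 3555 had an unadjusted p under 0.05. The change was at least 2-fold in 51 genes that were higher and 65 that were lower. The number of calls depended on each of the 4 compared libraries: it was 213 without control replicate 1, 449 without control replicate 2, 370 without SS replicate 1 and 303 without SS replicate 2. It was 2475 and 2448 without SS+NAC replicate 1 or 2. The offset says that a gene changed relative to genes of its length, so a gene can be called while its CPM stayed the same.

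Of the 1292 genes, 970 were also called in the same direction without the offset (6.93% of the tested genes), 326 of them higher (2.33%) and 644 lower (4.6%). A further 6 were called in opposite directions by the fits, and 316 with the offset only. Genes were counted as standing out when they also lay on that side of the median of the 500 genes nearest in length, had at least 5 CPM in a group, had SS and control libraries that did not overlap after length correction, and had mostly sequence of their own. This left 848 genes, 271 higher and 577 lower. Without the offset, 354 of the 848 lay outside the 5th to 95th percentile of their length neighbours.

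**Figure D2:**
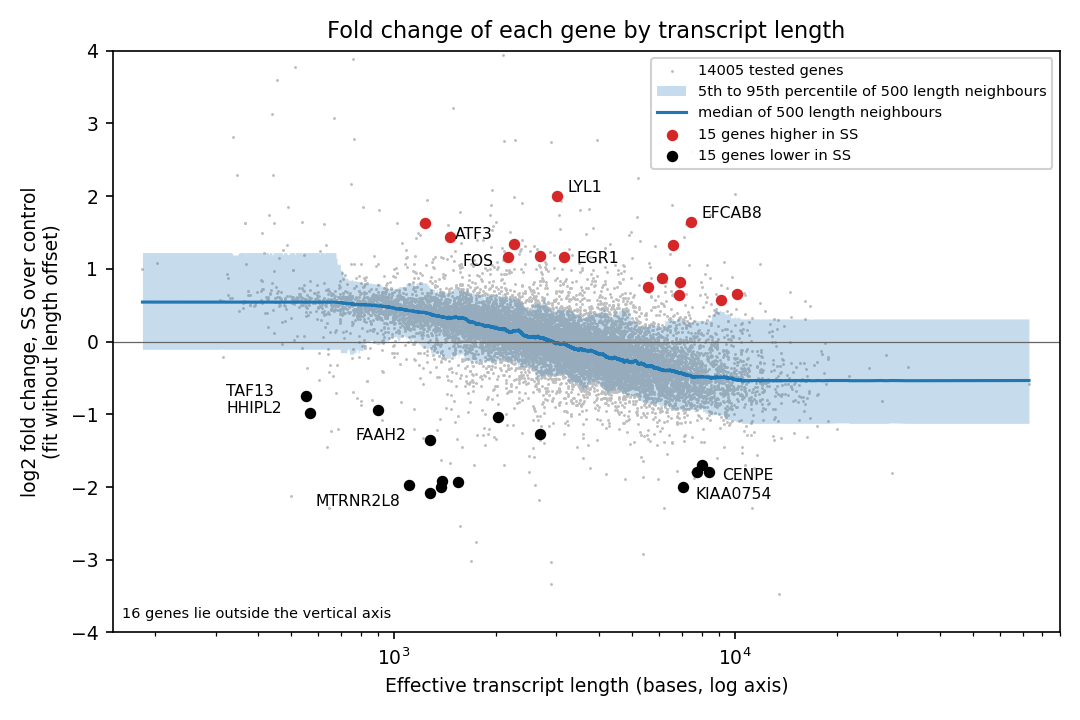
Each gene's log2 fold change of SS over control in the fit without offset (vertical axis) against effective transcript length in bases (log axis). Grey points are the 14005 tested genes, the blue line and band the median and the 5th to 95th percentile of the 500 nearest genes in length, and red and black points the 15 genes most raised and most lowered in SS relative to length; the band is flat at the ends, where a gene's neighbours lie to 1 side. The named genes lie above or below the line at lengths from 551 to 10201 bases.

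Among the 15 genes that rose most relative to their length were 3 transcription factors of the immediate early class, EGR1, ATF3 and FOS. EGR1, a zinc finger factor induced by growth factors and stress (chromosome 5, 138465490 to 138469315, GRCh38), had 10.3 and 9.41 CPM in control and 25.6 and 18.5 CPM in SS (log2 fold change 1.22, standard error, SE, 0.146, edgeR adjusted p = 0.00157). The groups did not overlap, as the rule that chose EGR1 required. Its fold change exceeded that of 99.6% of its length neighbours in the fit without the offset. ATF3, a bZIP repressor of stress responses (chromosome 1, 212565334 to 212620777), rose from 7.34 and 6.56 CPM to 19.7 and 15.6 CPM (log2 fold change 1.22, SE 0.171, edgeR adjusted p = 0.00297). FOS, a subunit of AP-1 (chromosome 14, 75278774 to 75282230), rose from 5.11 and 3.75 to 10.7 and 8.91 CPM (log2 fold change 1.02, SE 0.184, edgeR adjusted p = 0.00893). The FOS call was lost without control replicate 2 (0.79, edgeR adjusted p = 0.081) and without SS replicate 1 (0.86, edgeR adjusted p = 0.0756).

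Of 26 tested immediate early genes, 8 rose, 0 fell and 18 were not called, against 4.19% of all genes called higher. The fit without the offset called 9 of the list higher and 4 lower. Their median log2 fold change was 0.27, compared with 0.01 over all tested genes. The other AP-1 members that rose were JUN, from 167 and 174 to 227 and 206 CPM, JUND, from 88.7 and 96.5 to 136 and 137 CPM, and JUNB, from 32.1 and 33.3 to 72.0 and 54.3 CPM. Their log2 fold changes were 0.43, 0.37 and 0.73. ZFP36, which destabilises AU-rich mRNAs, rose from 16.1 and 15.1 to 33.8 and 25.2 CPM, and IER5 from 41.0 and 42.7 to 59.8 and 56.2 CPM. In all 8 genes both SS libraries exceeded both controls. This adds little to the calls: 901 of 901 genes called alike by both fits at 5 CPM or more did not overlap. With 1 of the compared libraries left out, 3 of the list were called higher without control replicate 1, 4 without control replicate 2, 2 without SS replicate 1 and 6 without SS replicate 2.

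DUSP1, the phosphatase that switches off MAP kinases after stress (chromosome 5, 172768090 to 172771195), had 46.6 and 47.0 CPM in control and 100 and 89.8 CPM in SS (log2 fold change 0.85, SE 0.0923, edgeR adjusted p = 0.000919). DUSP8, of the same family, was the other of 20 ERK feedback genes called higher (10%, against 4.19% of all genes), at a log2 fold change of 0.43, and its CPM moved from 19.9 and 21.9 to 23 and 24.8, and it was not called without the offset. Of this list 0 genes were called lower with the offset, against 6 lower and 3 higher without it, and 1 was called higher in each omission of a compared library.

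The 250 bases upstream of the start sites of EGR1, JUND and DUSP1 are shown because these promoters hold elements known for stress-responsive factors. They were taken from RefSeq (GRCh38.p14) and are written from 5′ to 3′ on the gene's strand. Capitals mark the CRE (TGACGTCA, the site of CREB and ATF factors) and the CArG box (the site of serum response factor), both searched on both strands. The AP-1 motif TGANTCA was searched as well and has no match in them. Matches to other searched motifs are not capitalised. JUND and DUSP1 hold the core of the antioxidant response element (ARE core), and EGR1, JUND and DUSP1 a loose NF-kappaB motif.
EGR1, chr5:138465229-138465478, plus strand: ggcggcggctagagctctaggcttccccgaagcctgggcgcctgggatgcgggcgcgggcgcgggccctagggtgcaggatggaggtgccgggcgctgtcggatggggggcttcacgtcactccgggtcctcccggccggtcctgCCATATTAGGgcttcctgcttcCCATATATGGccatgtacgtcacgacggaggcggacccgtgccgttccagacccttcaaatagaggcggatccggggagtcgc
JUND, chr19:18281623-18281872, minus strand: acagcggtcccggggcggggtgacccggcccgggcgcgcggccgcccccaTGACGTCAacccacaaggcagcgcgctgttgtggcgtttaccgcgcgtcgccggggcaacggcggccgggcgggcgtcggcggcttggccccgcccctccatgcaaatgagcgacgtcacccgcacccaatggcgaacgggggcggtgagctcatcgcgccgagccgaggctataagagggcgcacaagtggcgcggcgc
DUSP1, chr5:172771196-172771445, minus strand: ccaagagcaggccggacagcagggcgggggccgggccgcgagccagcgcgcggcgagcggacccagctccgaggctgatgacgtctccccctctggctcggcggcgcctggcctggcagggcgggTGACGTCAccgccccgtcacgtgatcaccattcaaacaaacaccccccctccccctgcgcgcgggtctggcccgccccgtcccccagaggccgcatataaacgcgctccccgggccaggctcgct
EGR1 has a pair of CArG boxes, at -105 to -96 and -83 to -74 from the start site, and JUND and DUSP1 each have a CRE, at -200 to -193 and -125 to -118. Over windows of 300 bases, 250 before and 50 after the start, the CArG box was found in 1.29%, the CRE in 1.85% and the AP-1 motif in 7.71% of 35116 promoters. Of the 8 immediate early genes called, each with a promoter in the table, 1 held a CArG box, 1 a CRE and 0 the AP-1 motif. The ATF4 composite element TGATGNAAN, present in 3.61% of promoters, matched in 1 of them, ATF3, at -191 to -183. Of the same 8 genes, 2 held the ARE core (13.3% of promoters), 2 a heat shock unit (6.71%) and 6 the loose NF-kappaB motif (58.7%). The CArG box was added to the search after the promoters were seen. A match describes the letters and shows no binding.

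Among the 848 genes that met every criterion, EFCAB8 and LYL1 rose most relative to length. EFCAB8, which encodes a protein with EF-hand motifs (chromosome 20, 32858923 to 32961609), had 5.72 and 5.38 CPM in control, 17.3 CPM in each SS library and 7.12 and 6.44 CPM in SS+NAC (SS over control: log2 fold change 2.09, SE 0.12, edgeR adjusted p = 1.37e-05), although genes of its length of 7437 bases had a median of -0.47 without the offset. LYL1, a basic helix-loop-helix factor of the blood lineage (chromosome 19, 13099033 to 13103161), rose from 2.95 and 3.03 to 9.11 and 14.9 CPM (log2 fold change 2.03, SE 0.246, edgeR adjusted p = 0.0016). CRYBB3, a lens crystallin, rose from 2.78 and 2.53 to 6.89 and 6.39 CPM. Its log2 fold change was 1.73. SLC12A5, a potassium chloride cotransporter of neurons, KIAA1324, an estrogen-regulated membrane protein, and ESRP2, a splicing regulator of epithelial cells, rose by 1.26, 1.24 and 1.09 on the log2 scale, from 3.56 to 5.39 CPM in control to 6.67 to 9.09 CPM in SS. All 6 were low in control. They did not overlap between the groups, as the rule that chose them required. Between control and SS, LYL1, CRYBB3, SLC12A5 and KIAA1324 averaged at least 5 CPM only in SS, where they are high. The same holds for FOS, PRSS53 and RRAD. ESRP2 did not rise in the deposited TPM, which are scaled by transcript length: its mean was 2.16 TPM in control and 2.09 TPM in SS.

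CEBPD and RRAD showed large rises that rested on few libraries. CEBPD, a C/EBP factor of acute inflammation, had 43.4 and 32.2 CPM in control and 145 and 87.6 CPM in SS (log2 fold change 1.27, SE 0.332, edgeR adjusted p = 0.0404). Without SS replicate 1 its log2 fold change was 0.80 (edgeR adjusted p = 0.261), and it was also not called without control replicate 1 (1.51, edgeR adjusted p = 0.108) or control replicate 2 (1.07, edgeR adjusted p = 0.194). RRAD, a small GTPase, had 5.56 and 3.89 CPM in control and 15.8 and 9.45 CPM in SS, and its log2 fold change of 1.13 fell to 0.66 without SS replicate 1 (edgeR adjusted p = 0.259). It was not called without control replicate 1 (1.40, edgeR adjusted p = 0.0981) or control replicate 2 (0.88, edgeR adjusted p = 0.231) either. FBXO32, a ubiquitin ligase of muscle wasting known as atrogin-1, rose from 31.0 and 29.4 to 55.0 and 39.1 CPM, and IRGQ from 17.1 and 16.4 to 26.8 and 22.9 CPM. ZNF805, a zinc finger gene of 10201 bases, rose from 5.61 and 5.52 to 9.59 and 7.86 CPM, and PRSS53, a serine protease, from 2.72 and 2.26 to 4.97 and 6.21 CPM. The PRSS53 call was lost without control replicate 2 (1.0, edgeR adjusted p = 0.0788) and without SS replicate 2 (0.97, edgeR adjusted p = 0.0753).

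**Figure D3:**
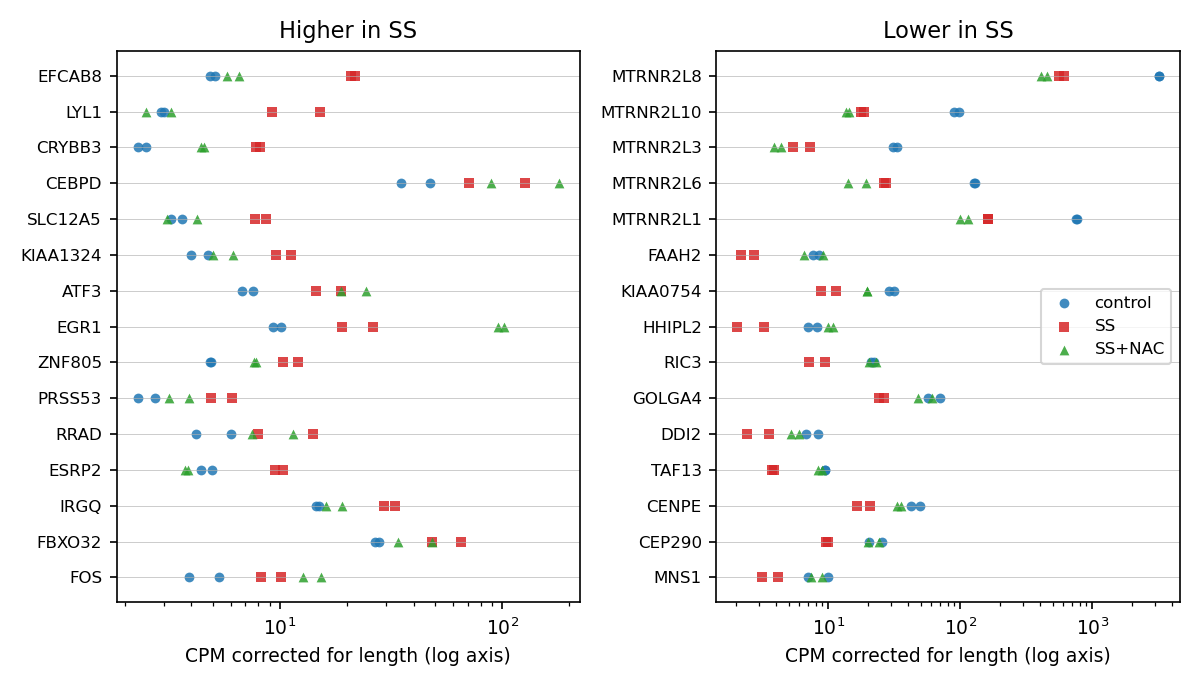
CPM corrected for the length trend (log axis) of the 15 genes most raised (left) and the 15 most lowered (right) in SS; each symbol is 1 library, with blue circles for control, red squares for SS and green triangles for SS+NAC. Red and blue do not overlap in any of the 30 genes, by the rule that chose them. The green symbols lie near blue for FAAH2 and RIC3 and beyond red for EGR1 and the MTRNR2L genes.

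Of 30 tested ATF4 and CHOP targets, 6 rose (20%, against 4.19% of all genes) and 0 fell, with a median log2 fold change of 0.13. The fit without the offset called 13 of them higher and 6 lower. DDIT3, which encodes the factor CHOP itself, rose from 9.73 and 10.5 to 20.3 and 20.2 CPM (log2 fold change 0.57, SE 0.133, edgeR adjusted p = 0.0273). DDIT4, an inhibitor of mTORC1, rose from 14.1 and 14.5 to 35.6 and 24.3 CPM, and CHAC1, a glutathione-degrading enzyme, from 8.28 and 8.19 to 12.8 and 13.2 CPM. ATF3, CEBPB and STC2 were the others, of which STC2 had 284 and 276 CPM in control and 329 and 308 CPM in SS and was called with the offset only. Leaving out a control or an SS library left 2 or 3 of the list called higher, and leaving out an SS+NAC library left 10.

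NRF2 targets, the antioxidant and detoxification genes, were positive in 31 of 34, against 51.8% of all tested genes. Of the list, 4 were called higher (11.8%, against 4.19% of all genes) and 0 lower. Their median log2 fold change was 0.12. NQO1, a quinone reductase, rose from 251 and 261 to 362 and 375 CPM (log2 fold change 0.47, SE 0.0659, edgeR adjusted p = 0.00308). OSGIN1 rose from 11.7 and 13.1 to 20.8 and 22 CPM, the autophagy receptor SQSTM1 from 431 and 449 to 588 and 584 CPM, and PGD, of the pentose phosphate pathway, from 152 in each library to 191 and 209 CPM. Without the offset, 19 of this list were called higher and 2 lower, and their median length was 2267 bases. With the offset, between 0 calls (without control replicate 1) and 2 (without control replicate 2) were left when a compared library was omitted, and 8 without either SS+NAC library.

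Of 26 p53 targets, 4 rose (15.4%, against 4.19% of all genes) and 0 fell. The fit without the offset called 8 higher and 1 lower. CDKN1A, the cyclin-dependent kinase inhibitor p21 (chromosome 6, 36676460 to 36687339), had 14.2 and 14.5 CPM in control and 31.7 and 24.8 CPM in SS (log2 fold change 0.83, SE 0.127, edgeR adjusted p = 0.0043). GADD45A, a stress sensor, rose from 38.6 and 38.5 to 57.4 and 62.4 CPM. TIGAR and the p53 ligase MDM2 were called only relative to their lengths of 8357 and 7206 bases: MDM2 had 35.7 and 31.9 CPM in control and 34.9 and 33.3 CPM in SS. In each of the omissions of 1 compared library, 2 or 3 of this list were called, and 6 without either SS+NAC library.

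Inflammatory genes had a higher median, 0.33 over 31 tested, with 4 called higher (12.9%, against 4.19% of all genes) and 0 lower. Calls without the offset were 16 higher and 1 lower. The median was 0.21 without SS replicate 1, 0.50 without SS replicate 2 and 0.56 without control replicate 1. NFKBIA, the inhibitor of NF-kappaB and one of its targets (chromosome 14, 35401511 to 35404749), had 69.2 and 64.4 CPM in control and 157 and 115 CPM in SS (log2 fold change 0.75, SE 0.193, edgeR adjusted p = 0.0394). PTGS2, the inducible cyclooxygenase, rose from 2.45 and 2.40 to 5.36 and 3.84 CPM, ICAM1, an adhesion molecule, from 30.9 and 26.7 to 52.8 and 39.7 CPM, and NFKB2 from 40.9 and 39.9 to 53.1 and 47.5 CPM. SS replicate 1 was the higher of the pair in all 4. No gene of the list was called without control replicate 1, without control replicate 2 or without SS replicate 1, whereas 4 were without SS replicate 2 and 15 without either SS+NAC library.

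Heat shock genes moved in both directions, with 4 of 20 higher and 3 lower, against 4.19% and 5.03% of all genes. With a compared library left out, 1 was called higher each time, and 1 was lower without control replicate 2 or SS replicate 2 and 0 without control replicate 1 or SS replicate 1. The inducible chaperone gene HSPA1B rose from 115 and 118 to 199 and 178 CPM (log2 fold change 0.63, SE 0.0787, edgeR adjusted p = 0.00191), and its near-identical neighbour HSPA1A from 263 and 252 to 397 and 371 CPM. Reads of these copies can be divided between them, and 26.5% and 28.7% of their windows are their own. HSP90AB1 and the cochaperone FKBP4 were the others called higher. HSPA4L fell from 19.8 and 19.9 to 11.7 and 12.2 CPM, and HSPH1 and CHORDC1 fell by 0.39 and 0.31 on the log2 scale. Selenoproteins, the proteins that carry selenocysteine, gave 0 calls among 19 tested with the offset and 10 higher and 3 lower without it. With the offset, 2 were higher with GC content in the trend, 3 higher and 1 lower on the longest transcript and 1 higher without SS replicate 1. DESeq2 called 1 higher, as did the trend on length and mean expression. The 4 compared libraries alone gave 1 higher and 1 lower, as did the omission of either SS+NAC library. The metallothionein list gave 1 call with the offset, the zinc exporter SLC30A1, which fell from 12.1 and 12.8 to 8.76 and 9.18 CPM, where the fit without the offset called 6 higher and 1 lower of 9. That call was lost in each omission of a compared library, with GC content in the trend and with the trend on the longest transcript.

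Among the genes that met every criterion, the lowest fold changes relative to length were those of 5 MTRNR2L genes, which are nuclear copies of the mitochondrial 16S ribosomal RNA gene MT-RNR2 and can encode humanin-like peptides. MTRNR2L8 (chromosome 11, 10507887 to 10509189) had 2900 and 2940 CPM in control, 690 and 685 CPM in SS, and 428 and 372 CPM in SS+NAC (SS over control: log2 fold change -2.44, SE 0.0772, edgeR adjusted p = 1.71e-07). MTRNR2L1 (chromosome 17, 22523111 to 22524663) fell from 714 and 703 to 181 and 191 CPM, and MTRNR2L10, MTRNR2L3 and MTRNR2L6 fell by 2.37, 2.34 and 2.25 on the log2 scale. Over the family, 8 of 9 tested genes fell (88.9%, against 5.03% of all genes) and 0 rose, and their summed level went from 8650 and 8750 CPM in control to 2010 and 2040 CPM in SS.

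These values do not separate the nuclear genes from mitochondrial 16S RNA. In GENCODE release 29, the transcript of MTRNR2L8 was 93.3% identical to MT-RNR2 over 1298 aligned bases, and those of MTRNR2L1, MTRNR2L6, MTRNR2L10 and MTRNR2L3 were 89.7%, 87.4%, 85.7% and 85.1% identical over 1377 to 1522 bases. At least 75.1% of the 50-base windows of each of the 5 were found in no other gene, but reads with mismatches could still be placed on them. MT-RNR2 was not analysed here. MTRNR2L2, the highest of the family at 4220 and 4150 CPM in control and 931 and 949 CPM in SS, fell by 2.58 on the log2 scale and MTRNR2L9 by 2.70, beyond the 5 genes above. Both are uncertain, since neither was matched to a reference transcript for the count of unique windows. The GENCODE transcripts that carry their symbols are only 87 and 75 bases long.

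Long messages made up 4 of the other 10 genes with the largest falls. GOLGA4, a golgin that tethers vesicles (chromosome 3, 37243177 to 37366751), had 78.4 and 63.6 CPM in control and 20.2 and 20.8 CPM in SS (log2 fold change -1.32, SE 0.131, edgeR adjusted p = 0.000633). CENPE, the kinetochore motor that aligns chromosomes (chromosome 4, 103105806 to 103198409), fell from 56.4 and 47.5 to 13.6 and 16.4 CPM (log2 fold change -1.30, SE 0.118, edgeR adjusted p = 0.000585). CEP290, a protein of the ciliary transition zone, fell from 28.9 and 22.6 to 7.98 and 7.90 CPM. KIAA0754 fell from 32.5 and 34.5 to 9.63 and 7.13 CPM, and it is uncertain, since its reference annotation (chromosome 1, 39081316 to 39487177) overlaps MACF1. These 4 genes were 7083 to 8430 bases long, and the median of their length neighbours was -0.45 to -0.49 without the offset, so each of them fell further than genes of its length.

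The other 6 fell although the median of their length neighbours was above 0. FAAH2, a fatty acid amide hydrolase of 1282 bases, went from 7.78 and 7.01 to 3.09 and 2.65 CPM (log2 fold change -1.71, SE 0.203, edgeR adjusted p = 0.00147). RIC3, a chaperone of acetylcholine receptors, went from 20.1 and 19.1 to 11.2 and 9.23 CPM, and TAF13, a subunit of TFIID of 551 bases, from 8.34 and 8.46 to 4.79 and 5.25 CPM. HHIPL2, DDI2, a protease that activates NRF1, and MNS1 fell by 1.53, 1.31 and 1.21 on the log2 scale. Between control and SS, FAAH2, HHIPL2, DDI2 and MNS1 averaged at least 5 CPM only in control, where they are high. The MNS1 call was lost without control replicate 1 (-0.94, edgeR adjusted p = 0.0726) and without SS replicate 1 (-1.02, edgeR adjusted p = 0.0756).

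Of 42 tested mitosis genes, 11 fell and 0 rose, against 5.03% of all genes called lower, and their median log2 fold change was -0.08. The fit without the offset called 6 of the list higher and 16 lower. ASPM, a spindle pole protein, fell from 115 and 107 to 35.2 and 41.2 CPM (log2 fold change -0.98, SE 0.0981, edgeR adjusted p = 0.000633). KIF18A, a kinesin, fell from 42.6 and 36.1 to 18.6 and 21.9 CPM, the spindle checkpoint kinase TTK from 62.9 and 58.0 to 36.1 and 38.8 CPM, and the cytokinesis factor ECT2 from 94.5 and 88.5 to 56.5 and 58.4 CPM. HMMR, DLGAP5, ANLN, NUF2, NDC80 and CENPF were the others besides CENPE, with log2 fold changes of -0.35 to -0.54. The groups did not overlap in these genes, as was so for 901 of 901 genes called alike by both fits at 5 CPM or more. Of the list, 31 were not called. The number that fell was 3 without control replicate 1, 7 without control replicate 2, 3 without SS replicate 1 and 9 without SS replicate 2.

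Of 30 genes of homologous recombination and the Fanconi pathway, 7 fell (23.3%, against 5.03% of all genes) and 0 rose. Calls without the offset were 2 higher and 13 lower. FANCM, a translocase of stalled forks, fell from 9.62 and 8.10 to 3.18 and 3.79 CPM (log2 fold change -1.0, SE 0.159, edgeR adjusted p = 0.00497). RAD51D fell from 21.3 and 22.1 to 15.6 and 15.7 CPM, XRCC2 from 21.8 and 20.9 to 14.2 and 14.5 CPM, and the checkpoint kinase ATR from 36.5 and 37.0 to 20.4 and 20.9 CPM. RBBP8, BRCA1 and BLM were the other 3, with log2 fold changes of -0.49, -0.30 and -0.37. Between 1 (without control replicate 1) and 3 (without control replicate 2) of the list were called lower when a compared library was omitted.

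The median GC content was 42.9% in the mitosis and 42.5% in the recombination list, and a dependence on base composition remained after the length offset. Across 13697 genes, which are not independent, Spearman's rho of the fold change with the GC content of the longest transcript was 0.30 with the offset and 0.37 without. The eighth of genes with the lowest GC content held 50 calls upward and 277 downward, and that with the highest 63 and 6. The median GC content was 39.9% for genes called lower, 48.5% for those called higher and 48.4% for all tested genes. When GC content was added to the length trend, an alternative chosen after seeing the data, 9 mitosis genes and 6 recombination genes fell, 0 and 1 rose, and the log2 fold change was -1.11 for CENPE and -1.23 for GOLGA4. The immediate early list then had 8 genes higher and 4 lower.

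**Figure D4:**
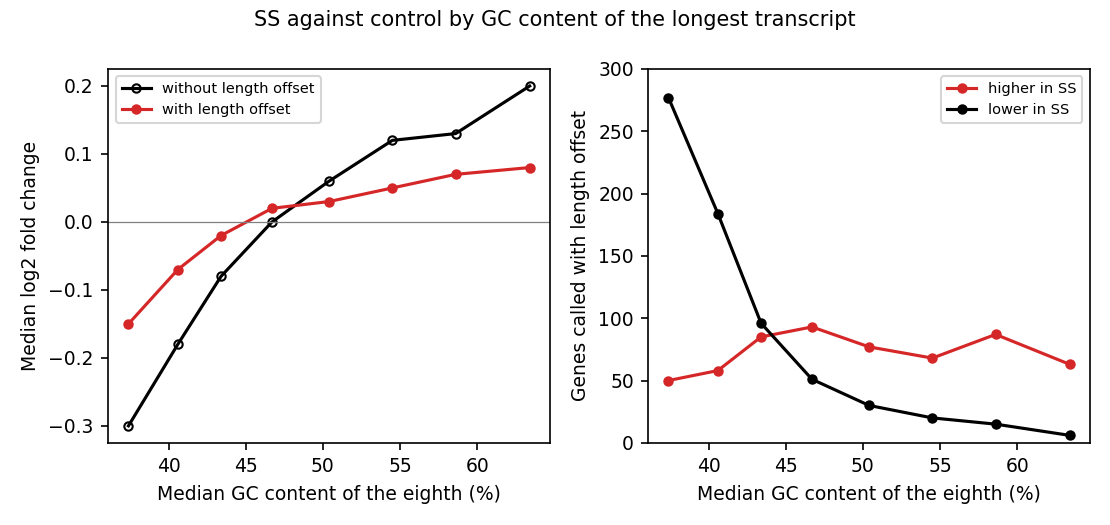
SS against control over 8 equal groups of genes ordered by GC content of the longest annotated transcript (horizontal axis, median percent). Left, median log2 fold change without (black) and with (red) the length offset, from -0.30 and -0.15 in the lowest group to 0.20 and 0.08 in the highest; right, genes called higher (red) and lower (black) with the offset, from 277 lower in the lowest group to 6 in the highest.

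Lists of short genes lost most of their calls once genes of like effective length were compared. Of 82 tested cytosolic ribosomal protein genes, 80 were called higher without the offset and 6 with it, against 18.6% and 4.19% of all genes, and the median moved from 0.50 to -0.03. The 6 were RPL27A, RPL13, RPL15, RPL22, RPL32 and RPL37, whose effective lengths of 1565 to 4940 bases exceed the list's median of 685 bases. Whether the derived lengths of RPL27A and RPL13, 4940 and 4565 bases, are those of their main transcripts was not tested, and their values with the offset depend on it. RPL27A had 1780 CPM in each control library and 2490 and 2660 CPM with SS. The log2 fold change was 0.54 without the offset and 0.82 with it. For complex I of the respiratory chain, 35 of 37 genes were called higher without the offset and 0 with it. With the offset, 28 of 37 had a positive value, against 51.8% of all tested genes, and the median was 0.07. For complexes II to V the calls went from 38 of 39 to 5, UQCRB, NDUFA4, ATP5MC3, UQCRQ and SDHC. UQCRB, of complex III, had 245 and 226 CPM in control and 293 and 321 CPM in SS. Mitochondrial ribosomal proteins went from 67 higher of 78 to 6, and the proteasome from 35 higher and 1 lower of 46 to 3 and 1. The loss of calls depends on which length is used: with the trend on the longest annotated transcript instead, 30 cytosolic and 18 mitochondrial ribosomal protein genes, 13 of complex I, 15 of complexes II to V and 16 of the proteasome were called higher, with medians of 0.18, 0.11, 0.18, 0.16 and 0.14. That fit called 1303 of all 14005 genes higher. With a compared library left out and the effective length kept, the 6 cytosolic ribosomal genes became 2 (4 without SS replicate 1), the 6 mitochondrial ones 1, 2 or 4, the 5 of complexes II to V 1, 2 or 3, and the 3 higher and 1 lower of the proteasome 1 or 2 and 0. Mitochondrial import factors (25 tested), V-ATPase subunits (22) and cytosolic aminoacyl-tRNA synthetases (20) gave 0 calls with the offset, and 12, 8 and 6 higher and 0, 2 and 2 lower without it. The list of the thioredoxin and peroxiredoxin system gave 1 higher of 23 with the offset, against 16 without it. The 1 gene was TXNIP, which encodes the thioredoxin-interacting protein, and none of the thioredoxins, their reductases or the peroxiredoxins was called.

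At the other end of length, 24 of 28 chromatin regulators around the KMT2 methyltransferases and CBP/p300 were called lower without the offset. Of all genes, 21.4% were. With the offset 2 were called lower, against 5.03% of all genes, and 1 higher. These are 10.7% of the list, near the 9.23% of all genes called. With a compared library left out, 1 was lower without control replicate 1 and 0 in the other omissions. The 2 became 7 with GC content added to the trend, where 847 of 14005 genes were called lower. They became 4 with the trend on the longest transcript, where 1268 were. KMT2D, the histone H3K4 methyltransferase of 19956 bases (chromosome 12, 49018975 to 49059774), had 157 and 171 CPM in control and 72.8 and 69.5 CPM with SS. The log2 fold change was -1.20 without the offset and -0.50 with it (SE 0.0843, edgeR adjusted p = 0.00671). EP300, an acetyltransferase, fell by 0.78 and by 0.27 in these fits. CHD4, of which 49.9% of windows are unique, was called higher with the offset at 368 and 380 CPM in control and 366 and 371 CPM in SS, with ranges that overlap, because its length neighbours were lower. Of 465 ZNF genes, 117 were called lower and 20 higher without the offset, and 28 and 10 with it, 8.17% in all, against 9.23% of all genes. With a compared library left out, between 3 and 13 were called lower and 3 or 4 higher.

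**Figure D5:**
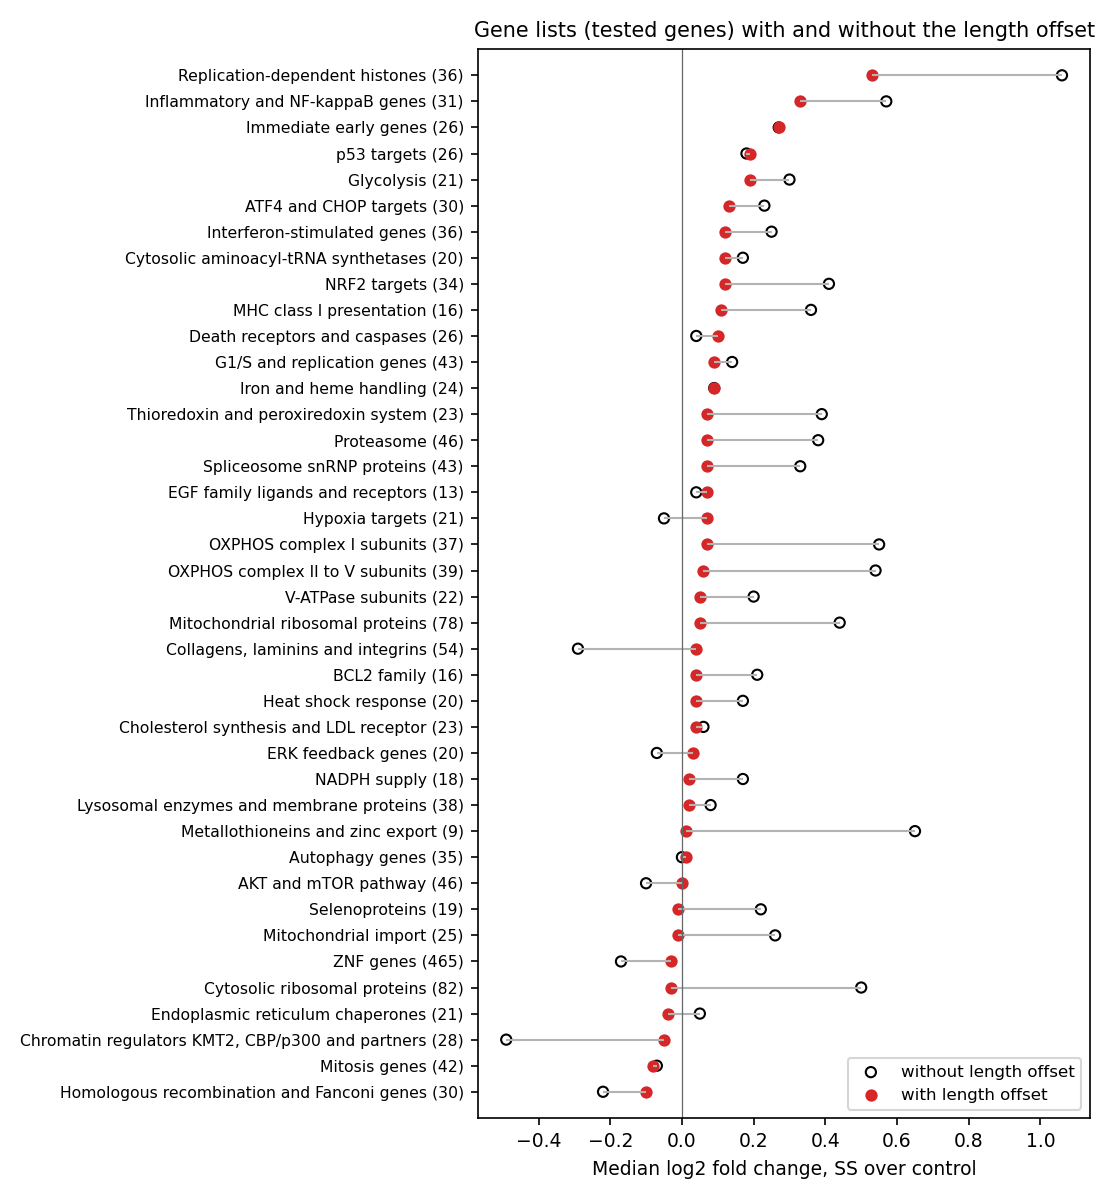
Median log2 fold change of SS over control (horizontal axis) for each gene list, with the number of tested genes in parentheses; open circles are the fit without and red points the fit with the length offset. The lists of short genes, such as cytosolic ribosomal proteins (0.50 to -0.03), and of long genes, such as the chromatin regulators (-0.49 to -0.05), move to near 0, and the histones lie at 0.53, or at 0.07 over the 14 with at least 10 counts in every library. The MTRNR2L list, at -2.34, and the cell type markers are left out.

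Of 66 replication-dependent histone genes, 36 passed the filter on low counts, and 6 of these were called higher (16.7%, against 4.19% of all genes) and 0 lower. The called genes had 1 to 12 counts in the control libraries, and those with the fewest passed the filter only through the SS libraries, where they are high. Among the 14 histone genes with at least 10 counts in every library, 0 were called and the median log2 fold change was 0.07, compared with 0.53 over the 36. These mRNAs end in a stem-loop rather than a poly(A) tail, and the libraries were made from RNA captured by oligo(dT). Over the 66 listed genes, counts not scaled for depth summed to 1332 and 1712 for control, 2816 and 3093 for SS and 2007 and 1864 in SS+NAC. The linker histone HIST1H1B stood at 1 count in either control library and at 25 and 26 with SS, and HIST1H1D at 2 and 1 against 23 and 30. The core histone HIST1H3G went from 3 and 6 counts to 48 and 42, and HIST1H2AH from 2 in either control library to 30 and 27. HIST1H1E also rose, as did HIST1H3D, of which 0 windows are unique. At these counts the number called was 0 without control replicate 1 and 1 in each omission of another compared library. SLBP, which binds the histone stem-loop, rose from 98.2 and 98.6 to 130 and 128 CPM (log2 fold change 0.28, edgeR adjusted p = 0.0252).

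Among 43 genes of snRNP proteins, the core of the spliceosome, 8 were called higher (18.6%, against 4.19% of all genes) and 0 lower. Calls without the offset were 26 higher and 3 lower. The 8 became 3 without control replicate 1 or SS replicate 1, 2 without control replicate 2 or SS replicate 2, and 4 with a replicate block. LSM5 rose from 36.1 and 32.6 to 50.1 and 52.1 CPM and SNRPA from 131 and 142 to 199 and 216 CPM. SF3B3, SNRNP200 and PRPF8 were called through their lengths of 7325 to 9877 bases: PRPF8 had 628 and 705 CPM in control and 610 and 664 CPM in SS. In glycolysis, the glucose transporter SLC2A1 rose from 135 and 146 to 171 and 179 CPM, SLC2A3 from 23.6 and 22.8 to 35.4 and 28.4 CPM, and the isomerase GPI from 342 and 367 to 436 and 464 CPM, with 0 of 21 genes lower. The 3 are 14.3% of the list, against 4.19% of all genes called higher and 5.03% lower. They became 0 without control replicate 1 and 2 in each other omission of a compared library. The fit without the offset called 14 glycolysis genes higher and 2 lower.

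EGFR, the receptor of epidermal growth factor (chromosome 7, 55019021 to 55211628), fell from 121 and 130 to 58.1 and 51.3 CPM. Its log2 fold change was -0.81 with the offset (SE 0.0763, edgeR adjusted p = 0.000587), at the 1.4th percentile of its length neighbours, and it was the 1 gene called of 13 in its list (7.69%, against 9.23% of all genes). Of 54 tested genes of collagens, laminins and integrins, 5 were called lower and 3 higher, 14.8% in all against 9.23% of all genes, with a median log2 fold change of 0.04. The 5 were integrin chains: ITGB1 fell from 962 and 891 to 645 and 596 CPM, ITGA6 fell from 267 and 283 to 160 and 170 CPM, and ITGA4, ITGA1 and ITGAV fell by 0.49, 0.75 and 0.54 on the log2 scale. COL7A1, LAMB2 and COL5A1 were the 3 called higher, relative to length only. The number lower was 0 without control replicate 1, 2 without control replicate 2 and 1 without SS replicate 1 or 2. The number higher was 1 without control replicate 1 or SS replicate 2 and 0 in the other omissions of a compared library. The fit without the offset called 1 of the list higher and 20 lower. Of 5 mesenchymal markers, 1 was called, lower (20%, against 5.03% of all genes). This gene, the factor ZEB1, fell from 65.8 and 57.9 to 30.8 and 33.2 CPM (log2 fold change -0.57, edgeR adjusted p = 0.00995), and the call was lost without control replicate 1 and without SS replicate 1. In the BCL2 family, 1 of 16 tested genes was called higher and 1 lower, against 4.19% and 5.03% of all genes, and 0 when any compared library was left out. BCL2, which blocks apoptosis, fell from 10.2 and 10.5 to 6.06 and 5.30 CPM, and the proapoptotic BID rose from 136 and 139 to 178 and 192 CPM.

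The study asked about AKT, mTOR and EIF4EBP3. Its AKT and mTOR evidence was western blots, with lower total AKT protein and less phosphorylation of both proteins. The mRNA values given here do not measure protein or phosphorylation. For EIF4EBP3, the study also reported a rise from quantitative PCR, in this line and in another, and knocked the gene down. Of 46 genes of the AKT and mTOR pathway, 3 were called higher and 4 lower with the offset, 15.2% in all against 9.23% of all genes, and the median log2 fold change was 0.00. Without the offset 12 were higher and 17 lower. The calls became 0 and 1 without control replicate 1, 1 and 1 without control replicate 2 or SS replicate 2, and 2 and 2 without SS replicate 1. MTOR had 90.9 and 94.2 CPM in control and 65.0 and 67.3 CPM with SS. The fitted log2 fold change was -0.48 without the offset (edgeR adjusted p = 0.00152) and 0.01 with it (SE 0.0892, edgeR adjusted p = 0.966), at the 53.2nd percentile of its length neighbours. AKT2 moved from -0.29 (edgeR adjusted p = 0.0327) to -0.09 (edgeR adjusted p = 0.62). AKT1 had 307 and 318 CPM in control and 283 and 320 CPM in SS, overlapping ranges, with a log2 fold change of -0.06 with the offset (edgeR adjusted p = 0.688). The PI3-kinase subunits PIK3R1 and PIK3CA fell by 0.43 and 0.51 on the log2 scale, and EIF4G3 by 0.33. EIF4E, DDIT4 and EIF4EBP3 were called higher. EIF4E had 75.8 and 74.4 CPM in control and 70.2 and 70.1 CPM in SS, and was called only because its length neighbours were lower. EIF4EBP3, at 0.389 and 0.226 CPM in control and 1.35 and 3.84 CPM in SS, had a log2 fold change of 2.54 with the offset (edgeR adjusted p = 0.0392), and 28.2% of its 50-base windows were its own. Its control libraries held 7 and 5 counts and its SS libraries 31 and 84, so it passed the filter on low counts only through the SS libraries, and DESeq2 gave it no adjusted p. It was not called without control replicate 1 (2.95, 0.148), control replicate 2 (2.17, 0.214) or SS replicate 2 (1.72, 0.26).

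A further 53 genes met each criterion except sequence of their own, 18 of them without a matched transcript. Those with the largest changes were MTRNR2L9, EIF3CL, MTRNR2L2 and LOC107984841. EIF3CL, of which 2.75% of windows are unique because of its copy EIF3C, had 17.5 and 64.8 CPM in control and 230 and 335 CPM in SS. Its control libraries lay far apart.

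The SS+NAC libraries placed the 30 named genes in 2 ways. On the length-corrected log2 scale, 17 lay nearer to control and 13 nearer to SS. For LYL1 the difference from control was 1.99 in SS and -0.07 in SS+NAC, for RIC3 -1.41 and 0.00, and for CEP290 -1.21 and -0.05. Nearer to SS were the 5 MTRNR2L genes, EGR1, FOS, ATF3, CEBPD, RRAD, CRYBB3, ZNF805 and FBXO32. These comparisons share the control libraries, and no test was made of the position.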

How the data were processed

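Polyadenylated RNA had been selected on oligo(dT) beads and primed at random by the authors, who sequenced single-end 50-base reads on a BGIseq500. Reads were filtered with SOAPnuke, and HISAT2 2.0.4, Bowtie2 2.2.5 and RSEM 1.2.12 are named in the submitters' processing notes. The deposited table of 17687 genes gives expected counts estimated by the authors using RSEM, of which 44.8% were not whole. The deposited FPKM and TPM values were also computed by the authors with RSEM, from these counts, transcript length and depth. Its 9 columns of group means and 9 of the authors' own comparisons were not used here.

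Expected counts were rounded, filtered with filterByExpr and scaled with TMM in edgeR 4.0.16 (limma 3.58.1, R 4.3.3), and the 6 libraries were fitted together with group as the only term. Effective length was derived as counts over FPKM times depth, and agreed between libraries with a median difference of 0.277% (7563 genes). The length offset of each library was a lowess fit (span 0.3) of log2 CPM deviations, with a prior count of 2, on log length. P-values were adjusted by Benjamini-Hochberg over 14005 genes. Uniqueness is the share of 50-base windows of GENCODE 29 transcripts found in no other gene on either strand (at least 50% was required), with 17001 genes matched. Standard errors, SDs and p-values rest on 2 libraries a group. Each SE was derived from the test, as the absolute log2 fold change over the square root of the quasi-likelihood F statistic. DESeq2 1.42.0 and other filters, trends and library subsets were alternatives, and the fits were tested on simulated data. P-values measure the spread between these samples only.

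Genes named were the 15 highest and 15 lowest by fold change among those standing out, and the members of 47 lists by their counts, with called members or up to 4 of the lowest adjusted p as examples. The members, lists and rule were chosen with earlier results of these data known. Python 3.11.15 (numpy 2.4.6, pandas 2.3.3) was used for tables, and matplotlib 3.10.9 for plots. Some items are not reported here.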

Additional observations from a re-analysis of the deposited data

Results flagged for a closer look

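In 7 of the named genes, both SS+NAC libraries lay farther from control than both SS libraries, which enter the comparison of SS with control only through the shared estimate of spread, filter and scaling. EGR1 had a mean of 101 CPM in SS+NAC, against 9.85 in control and 22.1 in SS, and FOS had 13.7 CPM. On the lower side, the SS+NAC means were 400.0 CPM for MTRNR2L8, 101 for MTRNR2L1, 15.7 for MTRNR2L6, 12.8 for MTRNR2L10 and 3.86 for MTRNR2L3. The other 23 named genes did not meet this condition.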

How the results depend on the processing

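Of the 1292 genes called with the length offset, 976 were among the 5609 called without it. The count was 2571 with the trend on the longest annotated transcript and 2472 with the 4 compared libraries alone, and it ranged from 213 to 2475 when each library was left out. It was 49 with Bonferroni adjustment, 1775 with GC content added to the trend, and 1093 with DESeq2. The count without the offset was 1292 once the offset was added, 220 under Bonferroni adjustment (13 higher, 207 lower), and 3118 to 6579 with each library left out. In the fit with the offset, leaving out SS replicate 1 moved the split most: 55.9% of calls were then higher, against 45.4% in the full fit. In the fit without the offset, Bonferroni adjustment moved it most, from 46.4% to 5.91% higher. A replicate block gave 851 calls with the offset and 4857 without. Nothing in the labels says that a number marks a shared culture or day, and the correlation of deviations of equally numbered libraries was 0.245 between control and SS, but -0.415 and -0.443 with SS+NAC.

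The direction of all 30 named genes was kept under each alternative. For the fit without the offset and the comparison with length neighbours, the rule that chose the genes had fixed this in advance. That rule also required groups that did not overlap, so the omission of single libraries could hardly turn a direction. CEBPD and RRAD were no longer called with DESeq2 (log2 fold changes 1.28 and 1.13) or with GC content in the trend (1.24 and 1.10), and the omissions of single libraries that ended a call are given with the genes. AKT1 (-0.15 to 0.02 with each library left out) turned to 0.34 with the trend on the longest transcript and to 0.02 without SS replicate 1. MTOR (-0.05 to 0.06 with each library left out) turned to -0.48 without the offset, -0.09 on the longest transcript, -0.06 with GC content, -0.02 with no filter on low counts, -0.03 without control replicate 1 and -0.05 without SS replicate 2. The cause was not tested. DESeq2 called 0 histone genes, against 6 with edgeR.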
